A study of Mus musculus with 8 samples.

Results

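The brush border peptidases described here are 9 genes, Anpep, Enpep, Xpnpep2, Dpp4, Ace, Mme, Mep1a, Mep1b and Tmprss15, out of 45706 genes in the count tables. They were chosen by their symbols as a list of membrane-bound digestive peptidases. The rule used no measured level, but earlier results of these data were known when the list was made. All 9 were found by their Ensembl identifiers. Transcripts were measured by RNA-Seq in fresh crypts, the epithelial glands at the base of the mucosa, from the small intestine (SI) and the colon (COL) of 4 untreated wild-type C57BL/6N donor mice. Libraries of the same number, such as SI1 and COL1, come from the same animal. The labels name the donors of libraries 1 and 4 as female and those of libraries 2 and 3 as male, and no age was given. For the organoid cultures of the study the villi were scraped off the SI, and crypts were then released by chelation with EDTA. For these libraries the isolation steps, and how much villus tissue remained, are not stated. The replicates are separate animals.

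The brush border is the carpet of microvilli on the luminal face of absorptive enterocytes. Pancreatic proteases leave short peptides in the lumen, and peptidases anchored in the microvillar membrane cut these to amino acids, dipeptides and tripeptides, which transporters in the same membrane take up. Aminopeptidases remove residues from the amino end, dipeptidyl and carboxy-dipeptidases remove pairs of residues, and endopeptidases cut within the chain. Enteropeptidase stands apart from the others because its substrate is pancreatic trypsinogen, whose activation starts the protease cascade. Brush border enzymes are known to rise as enterocytes leave the crypt for the villus, and to be more abundant in the SI than in the colon.

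Of the 9 peptidases, 8 were higher in SI than in COL crypts and none was higher in COL, while Mep1a did not pass the test. In the whole transcriptome, 15.5% of the 14491 genes tested were higher in SI and 12.9% were higher in COL, which together makes 28.4% that differed in either direction (edgeR's quasi-likelihood test, Benjamini-Hochberg adjusted p below 0.05). The log2 fold changes of the 8 ran from 4.77 for Mep1b to 10.73 for Mme, and they held ranks 17 to 281 among all genes tested. The median over all 9 was 7.31, beside -0.09 over all genes tested. For the same 8 genes no SI library was as low as any COL library, which was true of 17.8% of the genes tested. Levels are given as CPM (counts scaled to TMM-adjusted library sizes) within a gene, and as FPKM (the same per kilobase of exons) between genes. Summed over the 9 genes, the peptidases reached 18251 to 33908 CPM in SI and 127 to 482 CPM in COL. In these bulk libraries, fewer cells of a type and less RNA per cell cannot be told apart.

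**Figure D1:**
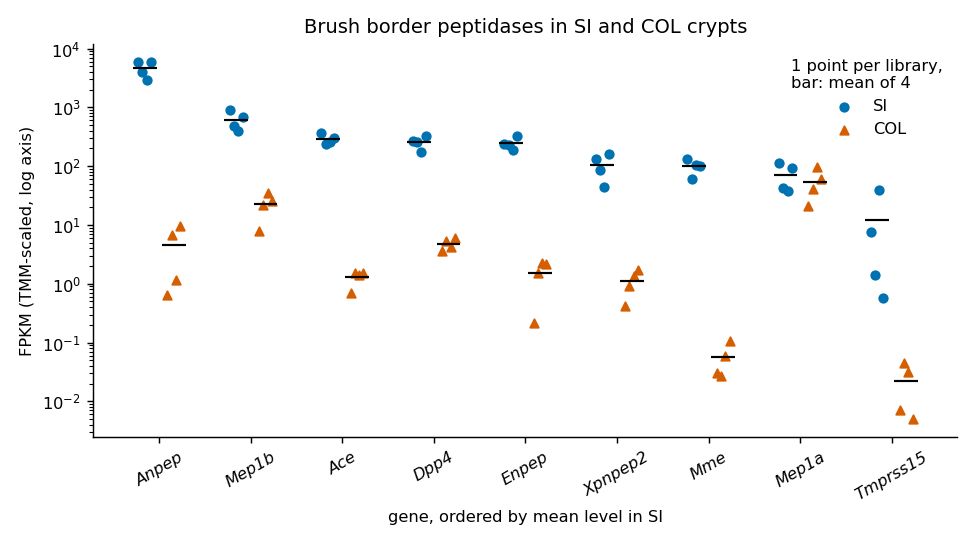
Level of each peptidase in FPKM (log axis), ordered by the mean level in SI, with 1 point per library (circles, SI; triangles, COL) and a bar at the mean of 4 libraries. For Mep1a the SI and COL points overlap, and for the other 8 genes every SI point lies above every COL point.

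The libraries were compared with marker lists before the peptidases were read. Total counts were 15969428 to 32908060 per library, and counts of mitochondrially encoded genes took 4.83 to 50.8% of them. The summed level of 9 villus enterocyte markers was 47010 to 125015 CPM in SI and 266 to 910 CPM in COL, and all 9 markers were higher in SI. The sum of 6 colonocyte markers was 471 to 1197 CPM in SI and 5246 to 32213 CPM in COL, and 4 of the 6 were higher in COL and 1 in SI. Paneth cell markers, which belong to SI crypts, summed to 556 to 3864 CPM in SI and to 17.9 to 82.9 CPM in COL, and 4 of 5 were higher in SI. The 5 stem cell markers summed to 30.7 to 310 CPM in SI and 39.0 to 54.4 CPM in COL, with 1 higher in SI and none higher in COL. The 1 was Olfm4, the largest part of the SI sum, with a mean of 151 CPM in SI and 0.930 CPM in COL. Lgr5, Ascl2 and Smoc2 had the higher mean in COL and Axin2 in SI, and none of these passed the test. Lgr5 was at most 11.2 CPM in SI and at least 11.5 CPM in COL. Ascl2 was at most 1.57 CPM in SI and at least 2.46 CPM in COL. The SI1 library stood apart, with the highest villus sum, the lowest Paneth sum at 556 CPM and a stem cell sum of 30.7 CPM, where the other SI libraries held 217 to 310 CPM. Without SI1 the same 8 peptidases passed the test, with log2 fold changes of 4.55 (Mep1b) to 10.59 (Mme). The part of remaining villus cells in the SI levels was not tested.

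The catalytic sites of the metallopeptidases show how the members relate. Aminopeptidases N and A, both domains of angiotensin-converting enzyme, neprilysin and the meprins carry a zinc-binding motif in which a histidine, a glutamate and a further histidine hold and assist the metal ion. The coding sequence around it was found by translating the longest coding transcript. It is given for the metallopeptidases searched, with the codons of these 3 residues in capitals.
Anpep: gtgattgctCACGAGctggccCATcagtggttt
Enpep: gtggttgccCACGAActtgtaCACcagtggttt
Ace, first domain: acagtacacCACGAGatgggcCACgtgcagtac
Ace, second domain: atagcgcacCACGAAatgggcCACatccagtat
Mme: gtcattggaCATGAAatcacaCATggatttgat
Mep1a: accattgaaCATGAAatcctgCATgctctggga

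In GRCm38 the Anpep site spans exons 6 and 7 of 21 (chr7:79838996-79839189, minus strand) and that of Enpep exons 5 and 6 of 20 (chr3:129309130-129309795, minus strand). The sites of Ace lie in exon 8 (chr11:105972901-105972933, plus strand) and exon 20 (chr11:105985085-105985117, plus strand) of 25. That of Mme is in exon 18 of 23 (chr3:63362012-63362044, plus strand), and that of Mep1a in exon 7 of 14 (chr17:43491650-43491682, minus strand). Mep1b and Xpnpep2 were not searched, and the remaining members work by other chemistry. Dpp4 and Tmprss15 are serine peptidases, and their serine sites are shown as the second catalytic type in the list. The capitals mark the codons of glycine, serine and glycine in the Dpp4 site, and the codons of the run glycine, aspartate, serine, glycine and glycine in the Tmprss15 site.
Dpp4: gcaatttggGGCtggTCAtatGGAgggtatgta
Tmprss15: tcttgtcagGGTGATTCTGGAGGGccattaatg

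The Dpp4 site spans exons 21 and 22 of 26 (chr2:62347900-62348515, minus strand) and the Tmprss15 site exons 27 and 28 of 28 (chr16:78953932-78957318, minus strand).

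Among the aminopeptidases, Anpep (aminopeptidase N, the broad-specificity enzyme also known as CD13; chr7:79821803-79861059, minus strand) was the most abundant peptidase transcript in SI. Its level was 24204, 16575, 12114 and 24577 CPM in SI1 to SI4 and 2.64, 27.5, 4.76 and 39.9 CPM in COL1 to COL4. The lowest SI library was far above the highest COL library, and in COL the gene was high in COL2 and COL4 and low in COL1 and COL3, a 15.1-fold range. The log2 fold change was 10.02 (SE 1.24, adjusted p = 0.000141, edgeR). Anpep made up 70.1 to 75.0% of the summed FPKM of the 9 peptidases in the SI libraries and 0.810 to 9.09% in the COL libraries.

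Enpep (aminopeptidase A, which removes acidic residues and also trims angiotensin II; chr3:129269175-129332720, minus strand) was at 1112, 1076, 886 and 1525 CPM in SI and at 1.03, 7.15, 10.7 and 10.1 CPM in COL. The SI libraries lay within a 1.72-fold range, while COL1 was about 10.4-fold below COL3. The difference was 7.31 on the log2 scale (SE 0.75, adjusted p = 4.51e-05, edgeR). Xpnpep2 (membrane-bound aminopeptidase P, which cuts before proline; chrX:48108725-48136981, plus strand) was measured at 652, 414, 214 and 771 CPM in SI and at 2.08, 4.54, 6.61 and 8.33 CPM in COL. SI3 was the lowest SI library for Anpep, Enpep and Xpnpep2, and COL1 the lowest COL library. Xpnpep2 differed by 6.57 (log2, SE 0.62, adjusted p = 2.84e-05, edgeR).

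Dpp4 (dipeptidyl peptidase 4, which frees dipeptides ending in proline or alanine and inactivates incretin hormones; chr2:62330073-62412231, minus strand) reached 1717, 1656, 1083 and 2037 CPM in SI and 23.2, 34.0, 26.2 and 38.1 CPM in COL. It was the steadiest member in COL, with a 1.64-fold range, and the groups did not overlap. Its log2 fold change was 5.74 (SE 0.45, adjusted p = 1.28e-05, edgeR). Dpp4 is also carried by T cells, where it is known as CD26. The 6 markers of T and B cells summed to 103, 37.8, 39.1 and 76.0 CPM in SI and to 14.9, 12.3, 10.4 and 37.0 CPM in COL, with Cd3e and Cd8a the 2 of 4 tested that were higher in SI. With the donor block all 4 were higher in SI, with Ptprc at an adjusted p of 0.0430 and Cd3g at 0.00763 (edgeR). The marker sum was highest in SI1 and COL4, and Dpp4 was highest in SI4 and COL4. The part of lymphocytes in the Dpp4 level was not tested.

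Ace (angiotensin-converting enzyme, which removes dipeptides from the carboxyl end; chr11:105967945-105989964, plus strand) was at 1956, 1244, 1385 and 1594 CPM in SI. In COL it was at 3.64, 8.14, 7.60 and 8.06 CPM, so that COL1 lay well below the other COL libraries. SI was higher by 7.82 on the log2 scale (SE 0.51, adjusted p = 6.51e-06, edgeR). Ace is also made by endothelium. The 6 endothelial and pericyte markers summed to 1.42 to 5.50 CPM in SI and to 8.04 to 22.8 CPM in COL, with Pecam1 and Pdgfrb of 3 tested higher in COL, and Vwf as well with the donor block (adjusted p = 0.0317, edgeR). Between the tissues Ace and the marker sum went opposite ways. Within COL both were lowest in COL1 (8.04 CPM for the sum) and highest in COL2 (22.8 CPM). By their means, not all markers followed the sum. Cdh5, Kdr and Rgs5, too low to be tested, had means of 0.0906, 0.544 and 0.422 CPM in SI. In COL their means were lower, at 0.0314, 0.157 and 0.0914 CPM. The SI means of Cdh5 and Kdr came from a single library, at 0.363 and 2.18 CPM. For Rgs5 the highest SI library held 1.45 CPM. Pdgfrb had the largest mean of the list in COL, at 8.03 CPM. The part of endothelium in the Ace level was not tested. In 50-base stretches, 4.14% of the longest Ace transcript also occurs in Gm11651, a gene overlapping it on the opposite strand. Dpp4, Enpep, Mep1b and Tmprss15 also overlap a gene on the opposite strand, and Anpep a gene on its own strand, without shared stretches. For Mme, 0.763% of the stretches also occur in other genes. Whether counting used the strand is not given in the sources used here.

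Mme (neprilysin, an endopeptidase that degrades enkephalins and other small peptides; chr3:63241537-63386030, plus strand) showed the largest fold change of the 9. It was measured at 1507, 704, 1224 and 1156 CPM in SI and at 0.352, 0.311, 0.695 and 1.24 CPM in COL. The COL values rest on 5 to 59 counts per library and the SI values on 11654 to 33266. The log2 fold change was 10.73 (SE 0.69, adjusted p = 6.51e-06, edgeR).

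**Figure D2:**
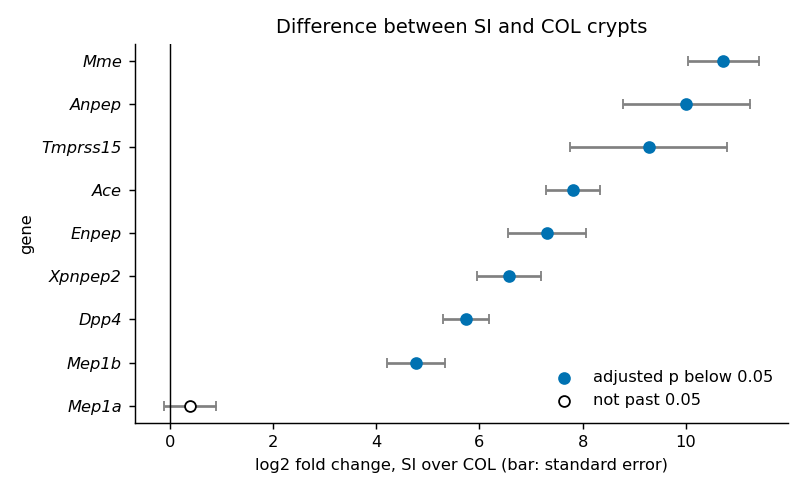
Log2 fold change of each peptidase, SI over COL, from edgeR's quasi-likelihood fit over 4 SI and 4 COL libraries, with bars of 1 standard error. Filled points passed an adjusted p of 0.05, and the open point, Mep1a at 0.39, did not.

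The meprins are secreted or membrane-bound zinc endopeptidases built of alpha subunits (Mep1a) and beta subunits (Mep1b), of which the beta subunit holds the complex in the membrane. Mep1b passed the test and Mep1a did not, and the difference between them was not itself tested. Mep1b (chr18:21061923-21100199, plus strand) was at 2341, 1278, 1049 and 1790 CPM in SI and at 20.7, 56.4, 92.4 and 67.2 CPM in COL. Its groups stood apart, with a log2 fold change of 4.77 (SE 0.57, adjusted p = 0.000107, edgeR), the smallest of the 8 that passed. Mep1a (chr17:43474324-43502812, minus strand) was at 387, 150, 131 and 317 CPM in SI and at 73.1, 141, 333 and 205 CPM in COL. The ranges overlapped, with SI1 above every COL library and COL1 below every SI library, and the log2 fold change of 0.39 was smaller than its standard error of 0.50 (adjusted p = 0.605, edgeR). Within mice the log2 difference of Mep1a was 2.40, 0.08, -1.35 and 0.63 for library pairs 1 to 4. Scaling by library size alone turned the Mep1a estimate to -0.38 (adjusted p = 0.561, edgeR), under which the median of all genes fell from -0.09 to -0.82. Relative to that median, Mep1a was at 0.48 with TMM and at 0.45 with library sizes.

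As a ratio of FPKM, Mep1b exceeded Mep1a 7.95-, 11.2-, 10.6- and 7.43-fold in SI1 to SI4, a mean of 9.30 ± 1.89 (SD, n = 4). In COL1 to COL4 the ratio was 0.372, 0.526, 0.365 and 0.431, a mean of 0.424 ± 0.0745 (SD, n = 4). Mep1b was thus above Mep1a in every SI library and below it in every COL library. The mean log2 ratio differed by 4.45 between the tissues, and by 4.35 to 4.56 when any 1 library was left out. This ratio needs no scaling between libraries. It was chosen after the values were seen, so no p-value is given. The meprins together made up 9.76 to 12.5% of the summed peptidase FPKM in SI and 79.5 to 92.6% in COL.

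**Figure D3:**
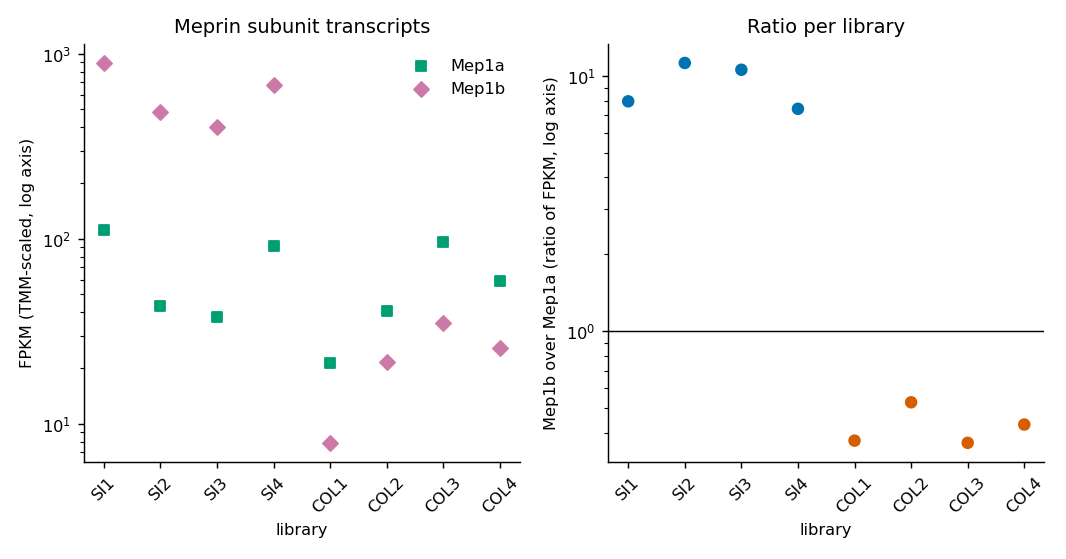
Left, FPKM of Mep1a (squares) and Mep1b (diamonds) in each of the 8 libraries on a log axis. Right, the ratio of Mep1b to Mep1a FPKM per library (log axis) with a line at 1. The ratio is 7.43 to 11.2 in SI and 0.365 to 0.526 in COL.

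Tmprss15 (enteropeptidase, the activator of trypsinogen; chr16:78953008-79091097, minus strand) was the least abundant and most uneven member in SI. Its level was 31.6, 5.92, 165 and 2.43 CPM in SI1 to SI4, on 698, 98, 3258 and 53 counts. In COL1 to COL4 it had 1, 3, 5 and 1 counts, or 0.0209 to 0.186 CPM. SI3 was 68.1-fold above SI4, where the other 8 members lay within 1.57- to 3.60-fold in SI, yet even SI4 was above every COL library. The log2 fold change was 9.28 (SE 1.52, adjusted p = 0.000867, edgeR), and it was 7.33 without SI3. With limma-voom it missed the threshold (adjusted p = 0.0515). Fits that pair the libraries by donor gave an adjusted p of 0.000143 (edgeR) and 8.89e-05 (limma-voom). Pooled over libraries, 4107 SI counts against 10 COL counts gave a ratio of 693 per scaled count, with a 95% exact interval of 376 to 1446 that covers counting error only. SI3, in which Tmprss15 was highest, was the lowest SI library for 6 of the other 8 members.

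The order of the levels per kilobase differed between the tissues. In SI, Anpep came first at 4684 ± 1471 FPKM (SD, n = 4) and Mep1b next at 615 ± 219 FPKM, and their ranges did not meet those of their neighbours. Ace at 292 ± 58.5, Dpp4 at 257 ± 62.8 and Enpep at 244 ± 57.2 FPKM overlapped one another. Below them lay Xpnpep2 at 105 ± 50.9, Mme at 99.4 ± 28.8, Mep1a at 71.3 ± 36.5 and Tmprss15 at 12.3 ± 18.4 FPKM, of which each overlapped the next. In COL the order began with Mep1a at 54.5 ± 32.0 FPKM and Mep1b at 22.5 ± 11.3 FPKM, whose ranges overlapped although Mep1a was the higher in all 4 libraries. Next came Dpp4 at 4.81 ± 1.09, Anpep at 4.53 ± 4.37, Enpep at 1.54 ± 0.939, Ace at 1.30 ± 0.409 and Xpnpep2 at 1.11 ± 0.553 FPKM, neighbours that overlapped. Mme at 0.0562 ± 0.0371 and Tmprss15 at 0.0221 ± 0.0193 FPKM closed the list and overlapped each other. Mep1a thus held rank 8 in SI and rank 1 in COL.

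Within the SI group the members shared part of their spread. For 8 of the 9 the highest SI library was SI1 or SI4, and Tmprss15 was the exception. SI1 and SI4 also held the higher villus marker sums, at 125015 and 90352 CPM beside 47010 and 53903 CPM in SI2 and SI3. This split was not particular to the villus list. Goblet cell markers summed to 10656 and 7820 CPM beside 2575 and 3846 CPM. The epithelial, colonocyte, and T and B cell sums were also higher in SI1 and SI4. The Paneth, fibroblast and muscle, and endothelial and pericyte sums were lower there than in SI2 and SI3. The mitochondrial shares of SI1 and SI4 were 4.84 and 7.35%, beside 28.3 and 22.7%, and their donors were the female mice. In SI the sex of the donor and the mitochondrial share thus cannot be told apart. In COL, 7 of the 9 members were lowest in COL1, a library of high mitochondrial share (26.9%) from a female donor. Fits on only the 4 libraries of low or only the 4 of high mitochondrial share, 2 against 2, each called the same 8 members.

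**Figure D4:**
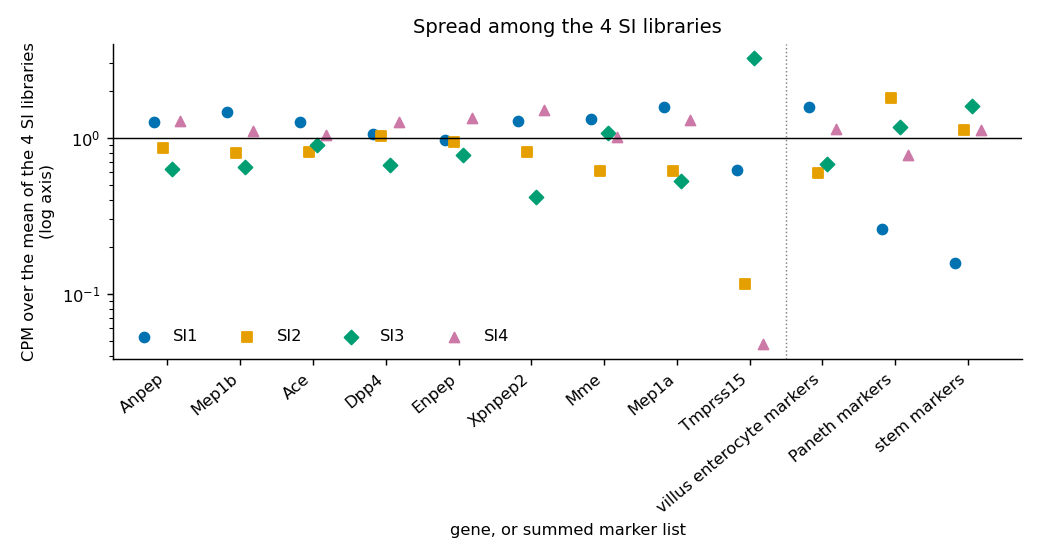
Level of each peptidase and of 3 summed marker lists in SI1 to SI4, each divided by its mean over the 4 SI libraries (log axis, line at 1). Tmprss15 spans 0.0473 to 3.22 and the stem cell markers drop to 0.158 in SI1, while the other 8 peptidases lie between 0.418 and 1.57.

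Whether the tissue difference depended on the sex of the donor was tested as an interaction over 2 mice per sex. No member passed, nor did any of the 14491 genes (0% called, edgeR), where 761 genes had an unadjusted p below 0.05. Without the filter on low counts 78 genes were called, no member among them. Mep1a was the member with an unadjusted p below 0.05, at 0.0355 (adjusted p = 0.909, edgeR), with a log2 difference between the tissues that was -2.10 in male relative to female mice (SE 0.86), and with library size scaling no member had one. The other 8 members had unadjusted p-values from 0.132 to 0.924 in the same edgeR fit.

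Lists of related genes show how far the pattern extended. Of 7 other brush border peptidases 5 were tested, and 4 were higher in SI and none in COL, with a median log2 fold change of 4.67. Ggt1, which splits glutathione, differed by 7.01 on the log2 scale (adjusted p = 0.000131, edgeR). The fourth call, Dpep1, was close to the threshold (adjusted p = 0.0453, edgeR). It was lost once libraries were paired by donor (adjusted p = 0.0509, edgeR with a donor block), which left 3. Library size scaling and the test against a log2 change of 1 also gave 3. So did leaving out SI1, SI4, COL1, COL2 or COL4. Among the uptake partners, the transporters of peptides and amino acids and their subunits, 7 of 7 tested of 8 listed were higher in SI, with a median of 5.53. The largest log2 fold changes were those of Slc6a19 at 9.24 and Slc6a20a at 7.41, sodium-coupled carriers of neutral amino acids and of proline.

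The cytosolic peptidases, which finish the digestion of dipeptides and tripeptides after uptake but also serve protein turnover in all cells, divided. Of 15 tested, 6 were higher in SI, 1 was higher in COL and 8 did not pass, with a median of 0.14. Pepd (prolidase) at a log2 fold change of 5.75 and Lap3 (leucine aminopeptidase) at 4.91 led those higher in SI. Thop1, a thimet oligopeptidase, was higher in COL by a log2 fold change of -1.03 (adjusted p = 0.0306, and 0.0523 with the donor block, edgeR), so that 0 of the 15 was higher in COL with the block. Scaling by library size gave 5 higher in SI and 4 in COL.

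Relatives by sequence were called in both directions. Of 15 paralogs 7 were tested, with 2 higher in SI, 2 higher in COL and a median of -0.52. On the log2 fold change scale, Bmp1, a tolloid protease related to the meprins, was at 2.93 and Erap1, an aminopeptidase of the endoplasmic reticulum, at 1.23. Ece2, related to neprilysin, was at -1.95 and the mitochondrial aminopeptidase Xpnpep3 at -1.11 (adjusted p = 0.0445, and 0.0832 with the block, edgeR), which left 1 higher in COL with the block. Library size scaling gave 1 higher in SI and 5 in COL. Among 9 membrane serine proteases, the relatives of Tmprss15, 6 were tested, none was higher in SI and 3 were higher in COL, with a median of -1.14. Tmprss13 had 0 counts in all SI libraries and 26 to 256 counts in each COL library, at least 101-fold higher in COL with a floor of 3 counts over the SI group. Hpn (hepsin) was at -5.90, and Prss8 (prostasin), an activator of epithelial sodium channels, was the other one higher in COL.

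The genes whose profiles lay nearest to the mean profile of the 9 members were found by the root mean squared difference of centred log2 CPM over the 8 libraries. These were Sphk1 at 0.217, Creb3l3 at 0.249, Apob at 0.340, Tm6sf2 at 0.358 and Cyp4v3 at 0.372 log2 units, where the median over all genes tested was 3.54. Sphk1 lay near the floor in COL, at a mean of 0.141 CPM beside 21.1 CPM in SI. The others had COL means of 9.25 to 28.8 CPM. Apob is the apolipoprotein of chylomicrons and was one of the villus enterocyte markers. By the same measure the nearest pairs of members were Dpp4 with Xpnpep2 at 0.650 and Ace with Enpep at 0.666, and Mep1b lay nearest to Dpp4 at 0.683 rather than to Mep1a. Anpep and Mme were each nearest to the other at 1.12. Tmprss15 and Mep1a were the most distant, at 1.77 from Ace and 2.24 from Mep1b.

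RefSeq promoter windows (GRCm38.p6, 250 bases before to 50 after a start site) were searched for 8 of the 9 members. Mep1b was left out of the search. The 11 windows were searched on both strands for 5 short motifs of factors or elements of intestinal genes. The hepatocyte nuclear factor 1 letters GTTAAT were in 1 of the 11 windows (7.1% of 32851 promoters), and the hepatocyte nuclear factor 4 letters CAAAGTNCA were in 0 (1.41%). The CDX letters TTTATNG were in 3 (10.9%), the GATA letters AGATAA in 1 (11.2%) and the TATA letters TATAAA in 3 (13.6%). The 250 bases before the start are shown for the members with the most kinds of match, Dpp4 and Tmprss15, and for Mep1a, the member that did not pass, with matches in capitals.
Dpp4, chr2:62412232-62412481, minus strand: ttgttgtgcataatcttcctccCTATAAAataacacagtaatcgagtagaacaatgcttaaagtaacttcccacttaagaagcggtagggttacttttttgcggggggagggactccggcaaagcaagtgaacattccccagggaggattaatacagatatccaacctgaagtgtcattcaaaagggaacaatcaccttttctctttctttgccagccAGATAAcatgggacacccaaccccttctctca
Tmprss15, chr16:79091098-79091347, minus strand: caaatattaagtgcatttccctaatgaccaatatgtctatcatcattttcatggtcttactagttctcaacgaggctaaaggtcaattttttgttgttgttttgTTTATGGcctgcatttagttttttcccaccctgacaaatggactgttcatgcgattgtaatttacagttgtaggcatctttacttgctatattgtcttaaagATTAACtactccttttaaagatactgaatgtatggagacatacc
Mep1a, chr17:43502774-43503023, minus strand: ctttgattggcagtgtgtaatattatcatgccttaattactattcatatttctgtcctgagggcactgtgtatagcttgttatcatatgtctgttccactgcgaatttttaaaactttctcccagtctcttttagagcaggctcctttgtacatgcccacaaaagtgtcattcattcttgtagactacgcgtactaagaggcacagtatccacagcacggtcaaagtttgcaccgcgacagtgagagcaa

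In Dpp4 the CDX letters (reverse strand, from base -228) and the TATA letters (from -227) overlap, and the GATA letters begin at -32. Tmprss15 holds the CDX letters from -146 and the hepatocyte nuclear factor 1 letters, on the reverse strand, from -44. The single match of Mep1a, to the CDX letters, begins 14 bases after the start and so lies outside the stretch shown. A match of letters is a description of the sequence and was not compared with binding data.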

How the data were processed

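RNA-Seq of 4 SI and 4 COL crypt libraries was analysed. Paired-end reads had been trimmed (Trimmomatic 0.36) and then aligned and counted per gene (STAR 2.5.2b) by the authors, with versions from the submitters' processing notes. The authors deposited raw counts per Ensembl gene, with no normalization. The study's methods name mm10, while the processing notes list mm9 and mm10, and the annotation release and strand setting are not given in the sources used here. Symbols, coordinates and exon lengths came from GENCODE vM21 (GRCm38), in which 563 of 45706 genes had no match, and promoters from RefSeq.

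SI and COL were compared by the quasi-likelihood test of edgeR 4.0.16 (R 4.3.3) with TMM scaling and filterByExpr (about 10 counts in 4 libraries and 15 in all), with Benjamini-Hochberg adjustment across the 14491 genes tested and a threshold of 0.05. CPM are on TMM-scaled library sizes, FPKM are CPM per kilobase of the union of exons, and profiles are of log2 CPM (prior count 2). The edgeR fit was also run on simulated counts with a single dispersion and no pairing, and no result here rests on that run. The study's methods name limma and no term for the mouse, so limma 3.58.1 (voom), DESeq2 1.42.0, a donor block, other scalings and filters and leaving out each library were alternatives. The donor numbers in the labels pair the libraries by animal. The deviations of SI and COL libraries of pairs 1 to 4 (donor mice 1, 2, 3 and 5) correlated at -0.24, 0.393, -0.0786 and 0.327. Replicates of a tissue differed by more than sampling noise (chi-square per gene at least 86.5).

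The text names all members, up to 2 called genes per direction and related list, the 5 nearest profiles and the nearest member of each. Added after their values were seen were Dpep1, Prss8, Ptprc, Cd3e, Cd3g, Cd8a, Pecam1, Pdgfrb, Vwf, Cdh5, Kdr, Rgs5, Olfm4, Lgr5, Ascl2, Smoc2 and Axin2. Members and lists were chosen with earlier results of these data known. The remaining marker lists gave, as summed CPM, 2575 to 10656 in SI and 11382 to 19246 in COL for goblet cells (0 higher in SI and 1 in COL of 5), 7858 to 12221 and 4277 to 12785 for epithelium (1 and 2 of 7), 8.26 to 16.0 and 3.52 to 10.5 for myeloid cells (1 and 0 of 3 tested), 0.815 to 11.2 and 2.17 to 10.1 for fibroblasts and muscle (0 and 0 of 6 tested), and 9.91 to 16.9 and 79.6 to 209 for pancreatic acinar cells (0 and 1 of 1 tested, with Amy2a5 at 0 counts in all libraries). A result for 1 of the named genes is not reported here. Organoid experiments were not analysed here.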

Additional observations from a re-analysis of the deposited data

Results flagged for a closer look

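A single value stood apart from its group. The Ace level in COL1 was 3.64 CPM, where the other COL libraries held 7.60 to 8.14 CPM, and the gap to the nearest library was 0.879 of the range of the group, above Dixon's 95% critical value for 4 samples. Chance puts about 1 in 20 groups past it, and 18 groups of 9 members and 2 tissues were examined. Most other members were also lowest in COL1.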

How the results depend on the processing

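The 8 members higher in SI kept this call under library size scaling, DESeq2, the replicate block, no filter, a test against a log2 change of 1, the mitochondrial share as a covariate, either set of libraries split by that share (added after seeing the data) and every leave-one-out fit. The exceptions were limma-voom, which called 7 (Tmprss15, adjusted p = 0.0515), and a filter of 10 counts in every library, which removed Mme and Tmprss15 and called 6. Of the log2 fold changes of single members under alternatives with a test, 167 were the same in direction and call, 1 lost its call (Tmprss15) and 1 changed sign (Mep1a, -0.38 with library sizes). With the replicate block, which pairs libraries by donor, no member's call changed, and the calls higher in COL fell to 0 for cytosolic peptidases and 1 for paralogs. Library size scaling gave 1 of the other brush border peptidases, 4 cytosolic peptidases and 5 paralogs higher in COL, and 1 paralog higher in SI. The filter of 10 counts gave 1 other brush border peptidase and 1 membrane serine protease higher in COL, the mitochondrial covariate gave 1 other brush border peptidase and 3 paralogs, and no filter gave 1 paralog. The test against a log2 change of 1 gave 0 cytosolic peptidases, 0 paralogs and 2 membrane serine proteases higher in COL and 1 paralog higher in SI, and the libraries of high mitochondrial share gave 0 cytosolic peptidases and 0 paralogs higher in COL. Leaving out 1 library gave 0 to 1 other brush border peptidases, 0 to 1 cytosolic peptidases and 1 to 2 paralogs higher in COL. The cause of these differences was not tested. Over all genes, 4116 were called, 5903 with library sizes, 5121 with DESeq2, 2072 against a log2 change of 1 and 2392 in the libraries of high mitochondrial share. Depth limits Tmprss15 and Mme in COL, at 1 to 59 counts per library.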
